A study of Mus musculus with 32 samples.

Results

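The genes described here belong to the Bcl2 family, whose proteins meet at the outer mitochondrial membrane and set whether a blood progenitor lives or dies. They were chosen by gene symbol from 10 names: Bcl2, Bcl2l1, Mcl1, Bax, Bak1, Bid, Bcl2l11, Bbc3, Pmaip1 and Bmf. Of these, 8 had a row in the deposited table of 27728 genes, and Bcl2 and Bak1 were not analysed here. All 8 passed the filter on low counts in every comparison.

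In this family, survival proteins such as Mcl1 and Bcl-xL (the product of Bcl2l1) hold back the pore-forming effector Bax. Proteins with only the BH3 motif are the triggers: Bid, Bim (Bcl2l11), Puma (Bbc3), Noxa (Pmaip1) and Bmf bind the survival proteins, and some also engage Bax. Once Bax opens the outer membrane, cytochrome c escapes and joins Apaf1 to start the caspases. In blood cells Mcl1 is known as a protein that progenitors depend on, Bim rises when cytokines are withdrawn, and Puma, Noxa and Bax are known targets of p53.

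The study sequenced RNA from sorted progenitors (Lin- cKit+ Sca1-) of mice with changed U2af1, which encodes a splicing factor that reads the end of introns. The 32 libraries formed 9 groups by genotype, treatment and stage. The deletion was not checked on U2af1, which was not analysed here. The labels do not say which libraries came from separate animals, so p-values measure only the spread between these libraries.

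The 15 fetal libraries came from untreated liver at stage E14.5. The flox control was U2af1(flox/flox) without Cre (3 libraries), the heterozygous deletion was Vav1-Cre/U2af1(wt/flox) (3), and the homozygous deletion was Vav1-Cre/U2af1(flox/flox) (3), all in batch A. Mice with Vav1-Cre only gave 1 library in batch A and 1 in batch B. The fetal S34F group was Vav1-Cre/U2af1(wt/S34F) (4 libraries, batch B), which carries a leukemia-associated missense allele. The Vav1 promoter is known to drive Cre in blood cells of all lineages, and how far the allele was recombined was not analysed here.

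The 17 adult libraries came from bone marrow. The 3 dosed groups shared Mx1-Cre, rTA and tgU2AF1(WT) on a U2af1(flox/S34F) background and received pIpC, which switches on Mx1-Cre through interferon, and chow with doxycycline, which induces the wild-type U2AF1 transgene. They differed in the doxycycline dose: 1250 ppm (4 libraries), 2500 ppm (6) and 10000 ppm (4). The untreated wild type carried Mx1-Cre, rTA and tgU2AF1(WT) as well but was U2af1(wt/wt) (3 libraries), and it received neither agent. Against it, genotype, pIpC and doxycycline changed together and cannot be told apart. The labels gave no adult batch.

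Total counts per library ran from 26588099 to 71251200. Markers of progenitors were present throughout, but those of other cells differed between libraries. Summed over 9 of 12 listed hepatocyte markers, the flox control libraries held 108.8, 622 and 395.7 counts per 1000000 (CPM), the heterozygous 54.6 to 127.0 and the homozygous 16.6 to 39.2. Of the macrophage list (9 of 10 measured), the flox control held 347.7 to 392 CPM and the homozygous deletion 64.7 to 93.7, with 2 markers at or under 3 counts in the homozygous group. The 4 measured B lineage markers, of 8 listed, summed to 58.2 to 119.4 CPM in the flox control and 24.0 to 26.3 in the homozygous deletion, where Pax5 was at or under 3 counts. Megakaryocyte markers (4 of 5 measured) summed to 164 to 214 CPM in the flox control and 70.1 to 114 in the homozygous deletion, and mast cell and basophil markers (4 of 5) to 76.6 to 121 and 107 to 188. Erythroid markers (6 of 11 measured) summed to 720 to 1053 CPM in the flox control and 542 to 628 in the homozygous deletion. Kit, the receptor used for sorting, was at 484 to 569 CPM in the flox control and 235 to 321 in the homozygous deletion. In the adult, Ly6g, a marker of mature neutrophils that a lineage gate should remove, reached 61.5 and 93.9 CPM in replicates 1 and 2 of 10000 ppm, against 0.32 to 17.1 in the other adult libraries. Untreated wild-type replicate 3 also stood apart: it had no read of the Y-linked noncoding gene Gm29650, which the other 16 adult libraries held at 0.43 to 0.86 CPM.

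The stretches before the start sites of Bax, Bcl2l11 and Bbc3 are shown because these genes changed most clearly after deletion and because a motif of a known regulator was found there. RefSeq windows on GRCm38.p6 (250 bases before to 50 after each start, 14 windows for 7 members) were searched on both strands for the p53 half-site, for the FOXO motif GTAAACA and for the STAT5 motif TTCNNNGAA. Capitals mark the match, and only the 250 bases before the start are shown, 5′ to 3′ on the strand of the gene. The Bax stretch is chr7:45466899-45467148 (minus strand), that of Bcl2l11 chr2:128125788-128126037 (plus) and that of Bbc3 chr7:16310011-16310260 (plus), before a RefSeq start inside the gene.
Bax: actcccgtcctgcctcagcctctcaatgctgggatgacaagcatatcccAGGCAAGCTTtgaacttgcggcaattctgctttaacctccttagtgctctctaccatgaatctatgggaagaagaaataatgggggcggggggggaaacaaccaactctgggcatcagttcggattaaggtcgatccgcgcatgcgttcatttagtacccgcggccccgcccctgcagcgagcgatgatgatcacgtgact
Bcl2l11: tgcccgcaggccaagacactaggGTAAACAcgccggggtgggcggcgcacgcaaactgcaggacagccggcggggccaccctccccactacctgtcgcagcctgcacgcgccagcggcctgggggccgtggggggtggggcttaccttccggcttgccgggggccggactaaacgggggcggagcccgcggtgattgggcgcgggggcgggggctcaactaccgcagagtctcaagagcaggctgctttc
Bbc3: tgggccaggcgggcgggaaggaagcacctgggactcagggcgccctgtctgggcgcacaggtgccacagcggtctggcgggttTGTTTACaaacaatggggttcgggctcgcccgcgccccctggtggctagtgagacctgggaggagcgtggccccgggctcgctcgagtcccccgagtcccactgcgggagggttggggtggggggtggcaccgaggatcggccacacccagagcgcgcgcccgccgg
Bax carries 1 p53 half-site that begins 201 bases before its start, and Bcl2l11 1 FOXO motif at 227 bases. The Bbc3 window holds the FOXO motif on the other strand at 167 bases. It is 1 of 3 windows of Bbc3. The window nearest the annotated start held no motif, and no Bbc3 window held a p53 half-site. A window of Bmf, with its start 5100 bases from the annotated start, holds a p53 half-site at 213 bases. Pmaip1 had no window among those searched. None of the 14 windows had the STAT5 motif. Among 32851 windows of the same length over all genes, 8.36% held the p53 half-site, 3.65% the FOXO motif and 8.30% the STAT5 motif. A match is a description of the letters, not of binding.

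Per length of exon, Mcl1 was the most abundant member and Bmf the least in all 9 groups. In the flox control the levels were 65.2 ± 4.0 CPM per kb (SD, n = 3) for Mcl1, 44.3 ± 1.0 for Bax, 25.3 ± 1.0 for Bid and 16.04 ± 1.3 for Bcl2l1. The other triggers were lower there, with Pmaip1 at 9.44 ± 4.75 CPM per kb, Bbc3 at 3.67 ± 1.05, Bcl2l11 at 2.64 ± 0.044 and Bmf at 0.666 ± 0.092. This order, with Mcl1, Bax, Bid and Bcl2l1 above the other 4, was the same in every fetal group and in each batch. In untreated adult wild type Mcl1 was at 83.0 ± 0.51 CPM per kb, Bid at 31.7 ± 1.6, Bax at 28.7 ± 5.0 and Bcl2l1 at 6.32 ± 0.21. Bid stood above Bax there and at 2500 and 10000 ppm, while Bax stood above Bid at 1250 ppm and in all fetal groups. Adult and fetal libraries differ in tissue, age and handling, so no test was made between them.

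**Figure D1:**
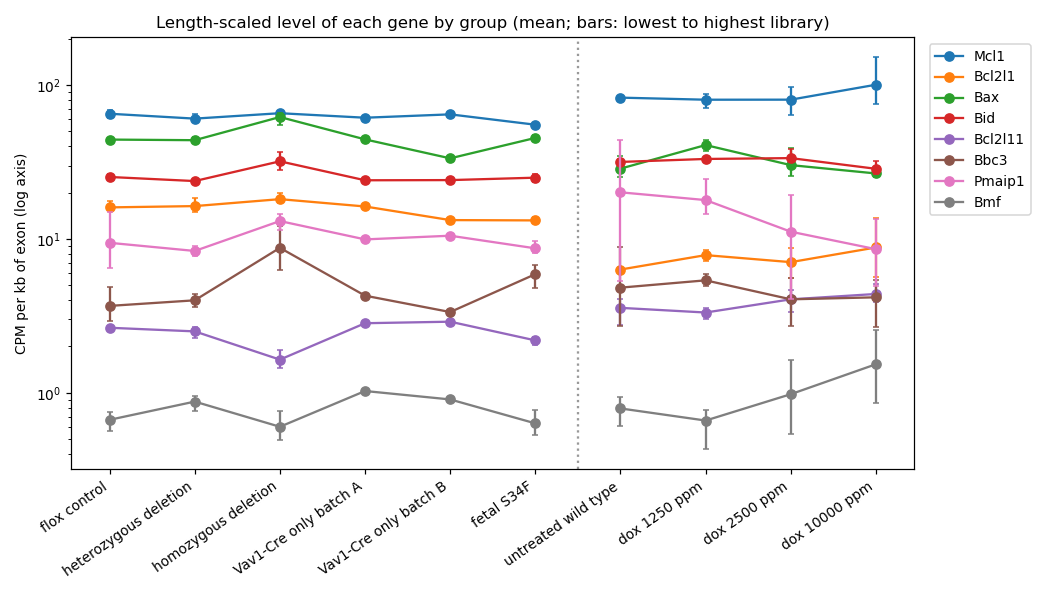
Mean level of each gene per kilobase of exon (CPM per kb, log axis) in each group, with bars from the lowest to the highest library and the dotted line between fetal and adult groups. Mcl1 lies on top and Bmf at the bottom in every group, and Bcl2l1 is lower in the adult groups (6.32 to 8.80) than in the fetal ones (13.2 to 18.1).

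The first question was what losing both copies of U2af1 does to these genes in fetal progenitors. Bax, Bid and Bbc3 were higher and Bcl2l11 was lower after loss of both copies than in the flox control, while Mcl1 and Bcl2l1 did not pass the test. Bbc3 moved furthest, by 2.35-fold in the fit. Thus 4 of 8 members were called in edgeR's quasi-likelihood test (adjusted p under 0.05), 3 higher and 1 lower. Over all genes tested, 41.0% were called in this comparison, 18.5% higher and 22.4% lower, so the count for the family is near the background. In bulk RNA, fewer cells of a type and less RNA per cell cannot be told apart.

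The survival genes had the smallest differences. Mcl1 was at 237, 221 and 211 CPM in the flox control and at 225, 226 and 222 in the homozygous deletion. The ranges overlap, and the difference was -0.01 ± 0.057 (log2, SE; adjusted p = 0.938). Bcl2l1 was at 80.5, 69.2 and 70.997 CPM in the control and 90.6, 78.8 and 80.3 after deletion, with overlapping ranges and a difference of 0.16 ± 0.089 (adjusted p = 0.181). Counts per gene do not separate the long and short splice forms of Mcl1 and Bcl2l1, which can act in opposite ways, and splicing was not analysed here.

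Bax, the pore-forming effector, was at 70.0, 68.1 and 71.2 CPM in the flox control and at 103, 104 and 87.2 in the homozygous deletion. All 3 deleted libraries lay above all 3 controls, and the log2 difference was 0.47 ± 0.065 (adjusted p = 0.000328). Ranges did not overlap for 4 of 8 members (Bax, Bid, Bbc3 and Bcl2l11), against 48.9% of all genes. The Bax row may also hold reads of Gm45808, a gene that overlaps it on the same strand.

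Among the triggers, Bid, which caspase 8 cleaves to link death receptors to mitochondria, was at 93.6, 89.3 and 86.5 CPM in the control and 111, 130 and 99.5 after deletion. The groups did not overlap, and Bid rose by 0.32 ± 0.078 (log2; adjusted p = 0.00781). Bid overlaps Gm44260 on its strand and Bcl2l13 and Gm17812 on the other, and the use of strand in counting is not given in the sources used here. Bbc3 was at 10.3, 6.19 and 6.86 CPM in the control and 25.9, 16.4 and 13.4 after deletion. It rose in all 3 deleted libraries, by 1.23 ± 0.24 (adjusted p = 0.0024), with replicate 2 the highest.

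Bcl2l11 went the other way. It was at 20.9, 21.3 and 21.6 CPM in the control and 11.5, 12.9 and 15.1 in the homozygous deletion, without overlap. The fall was -0.71 ± 0.12 (log2; adjusted p = 0.000859), to 0.612 of the control level in the fit. Thus the trigger known for cytokine withdrawal fell where Bbc3 and Bid rose.

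Pmaip1 and Bmf were not called. Pmaip1 was at 40.8, 17.8 and 18.8 CPM in the flox control and at 36.1, 31.4 and 39.6 after deletion. Flox control replicate 3 lay above the highest deleted library, and the other 2 controls lay below all of them. With all libraries the difference was 0.45 ± 0.26 (adjusted p = 0.191), and without that replicate it was 0.95 (adjusted p = 6.23e-05). Bmf was at 3.93, 3.59 and 2.98 CPM in the control and at 2.86, 4.003 and 2.60 after deletion, a difference of -0.17 ± 0.20 (adjusted p = 0.543).

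**Figure D2:**
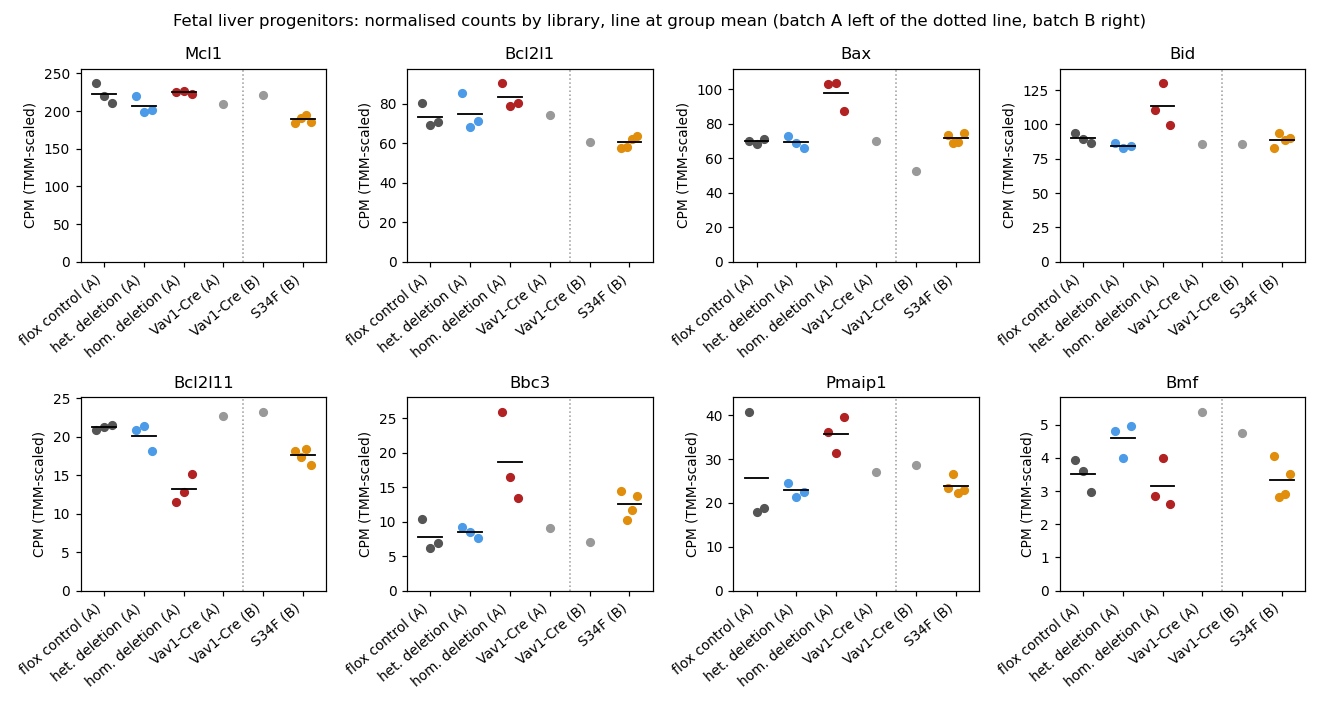
Normalised counts (CPM, TMM-scaled, axis from 0) of the 8 genes in each fetal library, with a line at the group mean and batch B right of the dotted line. The homozygous deletion stands above the other batch A groups for Bax (87.2 to 104 CPM), Bid and Bbc3 and below them for Bcl2l11 (11.5 to 15.1).

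Hepatocyte transcripts moved with these groups, as given above. With the summed hepatocyte marker level as a covariate, added after seeing the data, only Bax was still called (0.59, adjusted p = 0.0206). That is 1 of 8 members, beside 1353 of 12678 genes tested. Bcl2l11 was then at -0.81 (adjusted p = 0.0595), Bbc3 at 1.06 (adjusted p = 0.186) and Bid at 0.32 (adjusted p = 0.257), so that their sizes were near those without it while their errors were larger. Pmaip1, called in neither fit, went from 0.45 to -0.63 (adjusted p = 0.268). The part of macrophage, B lineage, megakaryocyte, erythroid and mast cells in these differences was not tested.

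No change of the family was detected with 1 copy lost. In the heterozygous deletion against the flox control, 0 of 8 members were called and 0 had an unadjusted p under 0.05 in edgeR, and DESeq2 also called 0. Over all genes 0.0316% were called. The differences ran from -0.17 ± 0.26 for Pmaip1 to 0.40 ± 0.20 for Bmf. Bmf was the 1 member whose ranges did not overlap (4.82, 4.004 and 4.97 CPM in the heterozygous deletion), where 15.8% of all genes showed none, and its adjusted p was 0.614. Mcl1 was at -0.10 ± 0.057, Bcl2l1 at 0.04 ± 0.089 and Bax at -0.01 ± 0.065. Of the other triggers, Bid was at -0.08 ± 0.077, Bcl2l11 at -0.07 ± 0.11 and Bbc3 at 0.13 ± 0.24.

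The homozygous deletion was next set against the heterozygous, where both carry Vav1-Cre. The hepatocyte markers were closer but still did not overlap. In the heterozygous libraries macrophage markers summed to 250 to 278 CPM and B lineage markers to 68.3 to 91.4. Megakaryocyte markers summed to 187 to 196 CPM there, and mast cell and basophil markers to 82.7 to 87.5. None of these ranges overlapped that of the homozygous deletion given above, and the part of these cells was not tested. Here 5 of 8 members were called against 42.3% of all genes (19.8% higher, 22.4% lower): Bax, Bid and Bbc3 higher, and Bcl2l11 and Bmf lower. Bax was at 72.9, 68.6 and 66.0 CPM in the heterozygous libraries, and its difference was 0.47 ± 0.065 (adjusted p = 0.000282). Bbc3 differed by 1.11 ± 0.24 (adjusted p = 0.00399), Bid by 0.40 ± 0.078 (adjusted p = 0.00214) and Bcl2l11 by -0.64 ± 0.12 (adjusted p = 0.00143). These differences share the homozygous libraries with the comparison above. With the hepatocyte covariate the same 4 genes were called, beside 4417 of 12678 genes tested. Bcl2l11 was then at -0.68 (adjusted p = 0.0052) and Bbc3 at 1.03 (adjusted p = 0.0204). Bmf, at -0.57 ± 0.20 (adjusted p = 0.0404), lost its call when any of 5 of the 6 libraries was left out (adjusted p up to 0.131). Pmaip1 was at 24.6, 21.3 and 22.6 CPM in the heterozygous libraries, all below the deleted ones, and was not called (0.62 ± 0.26, adjusted p = 0.0773). It passed without the filter (adjusted p = 0.00106), with only both compared groups (0.000969) and with all 15 fetal libraries (0.0275), and was at 0.10 (0.748) with the hepatocyte covariate. Mcl1 (0.09 ± 0.057, adjusted p = 0.234) and Bcl2l1 (0.12 ± 0.089, adjusted p = 0.293) were not called. Ranges did not overlap for 7 of 8 members, against 51.8% of all genes.

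**Figure D3:**
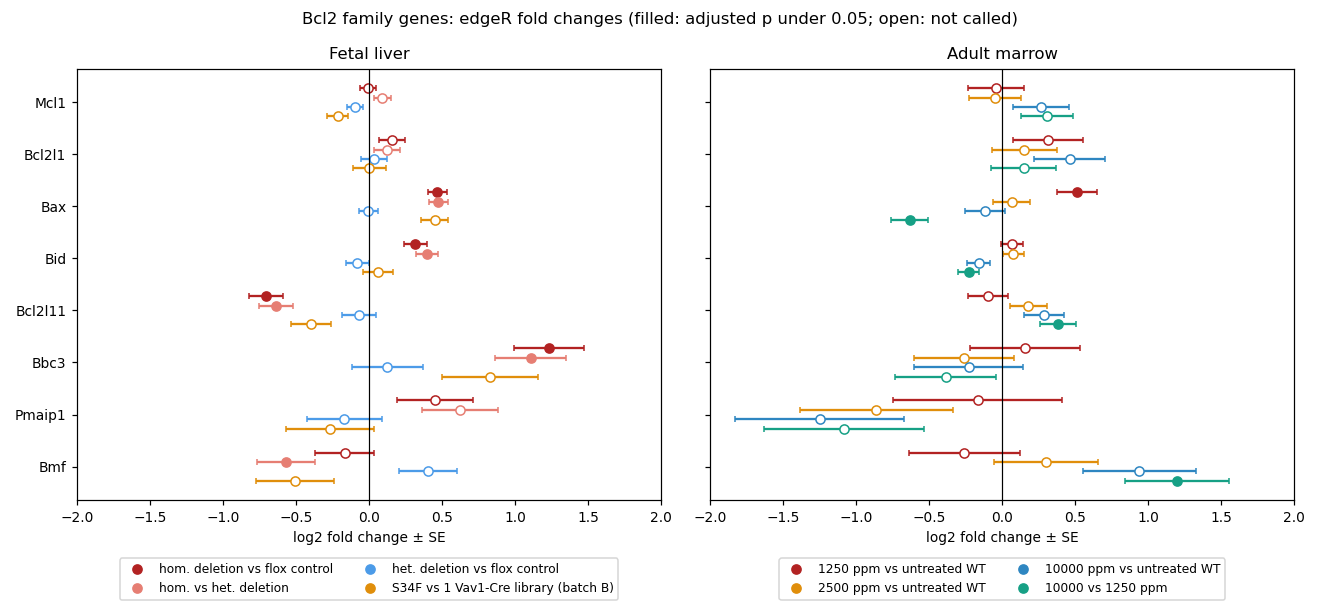
Log2 fold change with its standard error for each gene in 4 fetal and 4 adult comparisons, where filled points passed an adjusted p of 0.05. Bax, Bid, Bbc3 (right of 0) and Bcl2l11 (left of 0) are filled in both comparisons of the homozygous deletion, and none of the heterozygous points is.

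For the S34F allele the only control in the same batch was 1 Vav1-Cre library, which the fit assumed to vary like the other fetal groups. Against it 0 of 8 members were called by edgeR and 1 by DESeq2, and 0.295% of all genes were called. At an unadjusted p under 0.05 there were 4 of 8 members and 10.9% of all genes. Bax came nearest: it was at 73.7, 68.7, 69.3 and 74.6 CPM in the S34F libraries and at 52.7 in the control, a difference of 0.45 ± 0.093 (adjusted p = 0.0555). It passed with DESeq2, with median-ratio factors and without the filter on low counts, which are 3 of 7 other settings. It did not pass when any 1 S34F library was left out, with a difference of 0.43 to 0.48. The control of batch B was the lowest of the fetal controls for Bax, and the Vav1-Cre library of batch A held 70.0 CPM. That library is of another batch, and with 1 Vav1-Cre library in each, batch and library cannot be told apart.

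Bbc3 was at 14.47, 10.3, 11.7 and 13.7 CPM with S34F and 7.11 in the control, a difference of 0.83 ± 0.33 (adjusted p = 0.352). Bcl2l11 was at 18.1, 17.4, 18.5 and 16.3 CPM against 23.3, a difference of -0.40 ± 0.14 (adjusted p = 0.287). All 4 S34F libraries lay on the same side of the control for both genes, and also for Bax, Mcl1, Pmaip1 and Bmf. Such lack of overlap was found for 54.9% of all genes, since there was 1 control. B lineage markers summed to 41.4 to 45.6 CPM with S34F and 82.0 in that control, and mast cell and basophil markers to 78.9 to 113 and 140. Macrophage markers (231 to 248 and 238) and megakaryocyte markers (163 to 220 and 188) spanned the control. The part of these cells in the differences was not tested. Mcl1 was at 184 to 195 CPM against 221 (-0.22 ± 0.072, adjusted p = 0.265), and Bcl2l1 at 57.9 to 63.9 against 60.8 (0.0019 ± 0.11). Bid was at 0.06 ± 0.10, Pmaip1 at -0.27 ± 0.30 and Bmf at -0.51 ± 0.27 (adjusted p = 0.52 or more for these 3).

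In the adult, the question was whether the dose of doxycycline, which sets the wild-type transgene, moves the family in progenitors that carry S34F. Against untreated wild type, Bax rose at 1250 ppm, the lowest dose, and was not called at 2500 or 10000 ppm. At 1250 ppm 1 of 8 members was called, and it was higher, against 11.4% of all genes (6.76% higher). At 2500 ppm 0 members were called by edgeR against 0.487% of all genes, and at 10000 ppm 0 against 1.27%. At an unadjusted p under 0.05 there were 0 of 8 members at 2500 ppm, against 15.2% of all genes, and 2 of 8 at 10000 ppm, against 22.3%. DESeq2 also called 0 members at both of those doses. These 3 comparisons share the same 3 untreated libraries. Markers of other cells also separated 1250 ppm from the untreated group: macrophage markers summed to 251 to 327 CPM against 516 to 524, B lineage markers to 38.1 to 50.03 against 18.2 to 25.4, and mast cell and basophil markers to 52.8 to 89.0 against 94.3 to 160. Their part in the results was not tested.

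Bax was at 39.8, 41.4 and 54.3 CPM in the untreated wild type and at 68.4, 58.9, 60.1 and 69.8 at 1250 ppm. The groups did not overlap, as for 2 of 8 members and 34.8% of all genes, and the difference was 0.51 ± 0.14 (log2; adjusted p = 0.0297). At 2500 ppm Bax ran from 40.2 CPM over a median of 46.8 to 61.4, and at 10000 ppm it was at 41.5, 42.0, 39.8 and 44.8, both overlapping the untreated libraries. The call at 1250 ppm was lost when replicate 1, 4 or 5 of that dose or replicate 1 or 2 of the untreated group was left out (adjusted p up to 0.15), and held without untreated replicate 3 (0.65, adjusted p = 0.0209).

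The survival genes showed no called change against the untreated group at any dose. Mcl1 was at 286, 283 and 282 CPM in untreated libraries, at 242 to 298 at 1250 ppm and at 219 to 333 at 2500 ppm. The differences were -0.04 ± 0.19 and -0.05 ± 0.18. At 10000 ppm it was at 329, 523, 259 and 266, and the 2 high values are the replicates with high Ly6g. Bcl2l1 was at 28.7, 28.2 and 30.1 CPM untreated and at 38.6, 32.8, 34.6 and 38.0 at 1250 ppm. These did not overlap, and the difference of 0.32 ± 0.24 (adjusted p = 0.396) passed only in the fit of both compared groups alone (0.0292). At 2500 ppm Bcl2l1 ran from 25.7 to 39.9 CPM (0.15 ± 0.22), and at 10000 ppm it was at 43.9, 62.4, 29.2 and 26.0, with the same 2 replicates on top (0.46 ± 0.24, adjusted p = 0.271). Without those 2 libraries the differences at 10000 ppm were -0.12 for Mcl1 and -0.08 for Bcl2l1.

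The values of Noxa and Puma transcripts against the untreated group turned on 1 untreated library. Pmaip1 was at 14.49, 29.7 and 121 CPM in the untreated group and Bbc3 at 5.79, 6.02 and 18.9, with replicate 3 highest for both. That library also had the highest Bax of its group (54.3 CPM) and the lowest Bcl2l11 (22.1, against 32.9 and 30.8). At 1250 ppm Pmaip1 was at 39.5, 42.7, 45.9 and 67.5 CPM and Bbc3 at 11.98, 10.5, 12.5 and 10.8. Against all 3 untreated libraries the differences at 1250 ppm were -0.17 ± 0.58 for Pmaip1 and 0.16 ± 0.37 for Bbc3. Without replicate 3 they were 1.13 (adjusted p = 0.164) and 0.94 (adjusted p = 0.07). At this dose 1 control library thus set the size for both genes and, for Pmaip1, the direction. Bbc3 changed sign at this dose when untreated replicate 1 (-0.14) or replicate 2 (-0.12) was left out instead.

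At the other doses Pmaip1 was at -0.86 ± 0.52 (2500 ppm) and -1.25 ± 0.58 (10000 ppm), and Bbc3 at -0.26 ± 0.34 and -0.23 ± 0.37. Both genes changed sign at both doses without untreated replicate 3. Pmaip1 was then at 0.45 and 0.078 and Bbc3 at 0.53 and 0.58. Bid, at 112, 118 and 107 CPM in the untreated group, was at 0.07 ± 0.078, 0.08 ± 0.072 and -0.16 ± 0.078 from the lowest to the highest dose. Bcl2l11 was at -0.10 ± 0.14, 0.18 ± 0.13 and 0.29 ± 0.14, and Bmf at -0.26 ± 0.38, 0.30 ± 0.35 and 0.94 ± 0.39 (adjusted p = 0.167). Bax was at 0.07 ± 0.13 and -0.12 ± 0.14 at the upper doses. None of these passed the test.

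**Figure D4:**
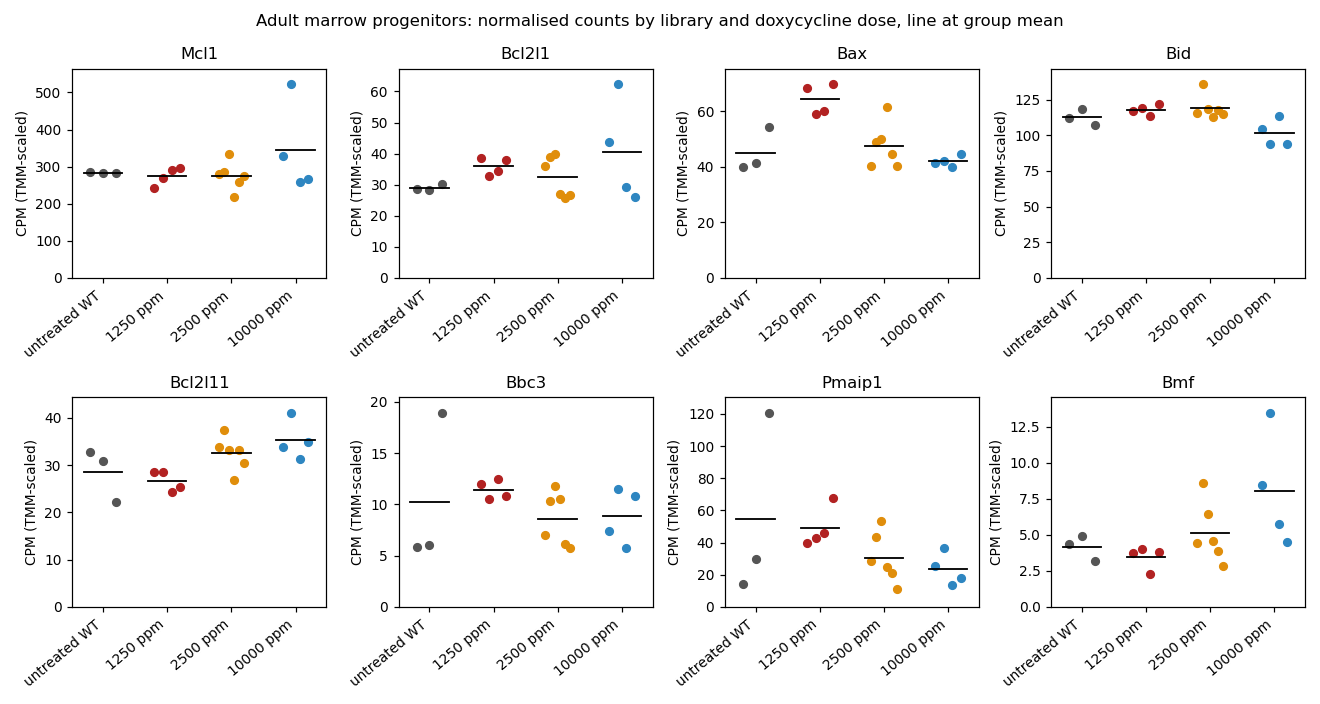
Normalised counts (CPM, TMM-scaled, axis from 0) of the 8 genes in each adult library by doxycycline dose, with a line at the group mean. Bax is highest at 1250 ppm (58.9 to 69.8 CPM), and 1 untreated library lies far above the other 2 for Pmaip1 (121) and Bbc3 (18.9).

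The doses were then compared with each other, where genotype and agents are shared. From 1250 to 10000 ppm Bax and Bid fell and Bcl2l11 and Bmf rose, so 4 of 8 members were called, against 18.1% of all genes (7.53% higher, 10.6% lower). Bax fell by 0.63 ± 0.13 (log2; adjusted p = 0.0058), to 0.645 of its level at 1250 ppm in the fit. Its groups did not overlap, with 39.8 to 44.8 CPM at the highest dose and 58.9 to 69.8 at the lowest. Bid was at 117, 119, 113 and 122 CPM at 1250 ppm and 105, 94.0, 113 and 94.1 at 10000 ppm, a small fall of 0.23 ± 0.072 (adjusted p = 0.0372). That call held in 2 of 15 other settings. It was lost with median-ratio factors (adjusted p = 0.0618), without the filter (0.144), with only both compared groups (0.122) and when any library of these doses but replicate 3 of 10000 ppm was left out.

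Bcl2l11 was at 28.4, 28.6, 24.3 and 25.4 CPM at 1250 ppm and 33.8, 41.0, 31.2 and 34.9 at 10000 ppm. It rose by 0.38 ± 0.13 (adjusted p = 0.0454) without overlap between the groups. That call held in 6 of 15 other settings. It was lost without the filter (adjusted p = 0.0667) and with only both compared groups (0.0506), among others. Bmf, the least abundant member, was at 3.77, 4.03, 2.26 and 3.78 CPM at 1250 ppm and 8.43, 13.5, 5.78 and 4.51 at 10000 ppm. It rose by 1.2 ± 0.35 (adjusted p = 0.0285), and both libraries with high Ly6g were the highest. The call of Bmf held in 8 of 15 other settings.

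Pmaip1 also did not overlap between these doses, at 25.6, 36.9, 13.4 and 17.8 CPM at 10000 ppm, but was not called (-1.08 ± 0.55, adjusted p = 0.18). Thus 5 of 8 members had no overlap, against 20.5% of all genes. Mcl1 differed by 0.31 ± 0.18 (adjusted p = 0.248) and Bcl2l1 by 0.15 ± 0.22 (adjusted p = 0.688). Bbc3 was at -0.39 ± 0.35 (adjusted p = 0.471).

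Over the 14 dosed libraries a slope on log2 of the dose was called for 2 of 8 members, where 10.7% of all genes were called (5.39% higher, 5.32% lower). Bax fell by 0.18 ± 0.043 (log2) per doubling of the dose (adjusted p = 0.0251), and Bmf rose by 0.39 ± 0.12 (adjusted p = 0.0429). In the middle group, at 2500 ppm, Bax was at 40.4, 48.9, 50.1, 61.4, 44.8 and 40.2 CPM, which spans much of the gap between the other doses. Bcl2l11 (0.12 ± 0.04, adjusted p = 0.0567) and Bid (-0.07 ± 0.026, adjusted p = 0.0739) lay near the threshold. Pmaip1 was at -0.32 ± 0.13 (adjusted p = 0.116), Bbc3 at -0.09 ± 0.084, Mcl1 at 0.12 ± 0.06 and Bcl2l1 at 0.08 ± 0.075.

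Mature neutrophil transcripts were high in replicates 1 and 2 of 10000 ppm, not in the whole group. Over 7 of 8 listed markers that the gate should remove, Ly6g and Itgam among them, these 2 libraries summed to 279 and 342 CPM. Replicates 3 and 4 of that dose were at 63.1 and 23.5 CPM. The sum was 36.0 to 43.6 CPM at 1250 ppm, 30.9 to 131 at 2500 ppm and 54.9 to 97.2 in untreated wild type. Megakaryocyte markers separated the highest from the lowest dose, at 71.7 to 228 CPM at 10000 ppm and 32.1 to 64.3 at 1250 ppm. Erythroid markers (6 of 11 measured) also did, at 346 to 948 CPM and 219 to 326. Replicate 2 of 10000 ppm held the 948 CPM, while the highest untreated library held 556. The part of these cells in the results was not tested. Itgam was at 208 and 230 CPM in replicates 1 and 2 of 10000 ppm and at 52.9 and 17.8 in the other 2. Without replicates 1 and 2, 0 of 8 members were called between 10000 and 1250 ppm. Bax was then at -0.58 (adjusted p = 0.0502), close to its size with them, while Bmf was at 0.59 (adjusted p = 0.315) and Mcl1 at -0.04. The slope with dose then also gave 0 calls (Bax at -0.21, adjusted p = 0.0722; Bmf at 0.18, adjusted p = 0.442).

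**Figure D5:**
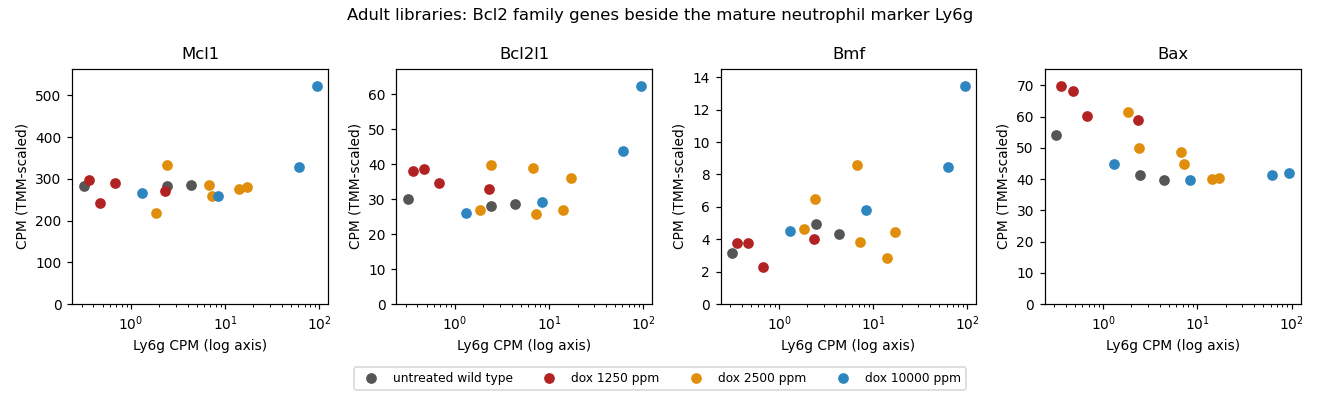
Level of 4 genes (CPM, axis from 0) beside that of Ly6g (CPM, log axis) in the 17 adult libraries, coloured by dose. The 2 libraries at 10000 ppm with Ly6g at 61.5 and 93.9 CPM are the highest for Bcl2l1 (43.9 and 62.4), while Bax is at 41.5 and 42.0 in them. The second is the highest for Mcl1 (523) and Bmf (13.5). The second also has the highest sum of erythroid markers among the adult libraries (948 CPM).

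The rest of the mitochondrial death pathway was read from 6 lists of 67 genes, of which 57 had a row and the others were not analysed here. After homozygous deletion, set against the flox control, 23 of 51 tested genes were called (12 higher, 11 lower), or 45.1%, beside 41.0% of all genes. All 5 called mitochondrial partners, of 8, were higher. They include Vdac2 (0.42 ± 0.058, adjusted p = 0.000323), an outer membrane channel that also binds Bax and its relatives, Vdac1 (0.28 ± 0.064, adjusted p = 0.00613), Aifm1 (0.19 ± 0.055, adjusted p = 0.0161) and Vdac3 (0.20 ± 0.066, adjusted p = 0.035). Apaf1, the other called gene of that list and the scaffold on which caspase 9 is activated, rose by 0.23 ± 0.084 (adjusted p = 0.0454).

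Of the caspases, Casp9, which Apaf1 activates, rose by 0.30 ± 0.062 (log2, SE) there. Casp1, an inflammatory caspase of myeloid cells, fell by 1.30 ± 0.17 (adjusted p = 0.000268) and Casp6 fell by 0.68 ± 0.10 (adjusted p = 0.000566). Of 4 inhibitors of apoptosis tested 0 were called by edgeR (1 at an unadjusted p under 0.05, and 1 by DESeq2).

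Of 10 death receptor genes 2 were called. Tradd, an adaptor, fell by 0.27 ± 0.083, and Tnfrsf10b, the mouse TRAIL receptor, rose by 1.41 ± 0.19 (adjusted p = 0.000267), from 4.61 ± 0.94 to 12.5 ± 2.8 CPM. Among 10 tested regulators, Mdm2 rose by 0.41 ± 0.07 (adjusted p = 0.00107), while Stat5b, Foxo1 and Stat5a fell by 0.45, 0.62 and 0.41. Mdm2 is a p53 target that restrains p53, STAT5 carries cytokine survival signals, and Foxo1 encodes a factor known to act on Bcl2l11. Of 11 tested relatives of the family 4 were called, 1 higher and 3 lower. Bcl2l12 was at -0.51 ± 0.064 (adjusted p = 0.000189), Bcl2l14 at -0.99 ± 0.26, Bcl2l15 at 2.52 ± 0.69 and Bcl2a1b at -1.60 ± 0.45, the last 2 with means of 1.1 CPM or less in either group. In the heterozygous and the S34F comparisons 0 genes of any list were called by edgeR (0 and 2 by DESeq2). At an unadjusted p under 0.05 there were 1 of 51 and 6 of 52, against 8.83% and 10.9% of all genes.

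Against the heterozygous deletion 25 of 51 genes were called (16 higher, 9 lower), or 49.0%, beside 42.3% of all genes. Of 8 mitochondrial partners 6 were called, all higher, with Vdac2 at 0.52 ± 0.058, Vdac1 at 0.31 ± 0.064, Aifm1 at 0.25 ± 0.055 and Vdac3 at 0.28 ± 0.066. Among the caspases Casp1, Casp6 and Casp8 fell by 1.26, 0.59 and 0.34. Of 11 relatives 3 were called, with Bcl2l12 at -0.69 ± 0.064, Bcl2l15 at 3.03 ± 0.70 and Bcl2l14 at -0.99 ± 0.26. Tnfrsf10b and Ripk1 rose by 1.06 and 0.17, and Birc5 rose by 0.20. Of 10 regulators 5 were called, with Foxo1, Stat5b and Stat5a lower by -0.72, -0.45 and -0.48 and Mdm2 higher by 0.38.

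Of the same lists, 10 of 52 tested genes were called at 1250 ppm against untreated wild type, or 19.2%, beside 11.4% of all genes. Tnfrsf10b was at 9.48 ± 1.2 CPM (SD, n = 4) at 1250 ppm and 3.95 ± 1.3 (n = 3) in the untreated group (1.26 ± 0.30, log2 and SE, adjusted p = 0.0186). Bok, a relative of Bax, rose by 3.26 ± 0.77 (adjusted p = 0.0186), from 0.256 ± 0.067 to 2.46 ± 0.27 CPM, and Bcl2l14 rose by 1.17 ± 0.36. Bad, a trigger controlled by growth factor signalling, rose by 0.38 ± 0.11, and Bnip3l, a mitophagy receptor of red cell precursors, fell by 0.59 ± 0.14. Dynll1, a dynein light chain known to bind Bim, rose by 0.42 ± 0.086 (adjusted p = 0.013), and Bag3, a chaperone partner, rose by 0.69 ± 0.19. Endog rose by 0.65 ± 0.18, while Birc3 fell by 0.48 ± 0.086 and Casp4, an inflammatory caspase, fell by 0.72 ± 0.17.

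From 1250 to 10000 ppm 13 of 52 genes were called (5 higher, 8 lower), or 25%, beside 18.1% of all genes. Tnfrsf10b fell by 1.09 ± 0.27 (adjusted p = 0.0127), Bag3 fell by 0.86 ± 0.18 (adjusted p = 0.00634) and Dynll1 fell by 0.39 ± 0.079 (adjusted p = 0.00627). Aifm1, Vdac1 and Endog, all mitochondrial proteins, fell by 0.49, 0.38 and 0.54. Birc3, an inhibitor of apoptosis, rose by 0.37 ± 0.08 (adjusted p = 0.00729). Bnip3l, Stat5b, Foxo1 and Casp12 rose by 0.48, 0.30, 0.50 and 1.10, and Bad and Casp9 fell by 0.33 and 0.21. Over the dosed libraries 7 of 51 genes had a called slope (3 higher, 4 lower), or 13.7%, beside 10.7% of all genes. Per doubling of the dose, Birc3, Stat5b and Casp12 rose by 0.12, 0.11 and 0.37, and Tnfrsf10b, Aifm1, Dynll1 and Bag3 fell by 0.32, 0.14, 0.11 and 0.24. At 2500 and 10000 ppm against untreated wild type 0 genes of these lists were called by edgeR (4 by DESeq2 in each). At an unadjusted p under 0.05 there were 8 and 7 of 52, against 15.2% and 22.3% of all genes.

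The genes most like each called member were found by Pearson's r of log2 CPM over the 32 libraries, among 8819 protein-coding genes with a mean of at least 100 counts. Bax was closest to Timm13 (r = 0.98), Ppp5c and Ddx39, and Bcl2l11 to Mpeg1 (0.95), Ggt5 and Iqsec2. Bid was closest to Dbi (0.91), Hspa13 and Mfsd1, and Bmf to Card6 (0.85), Mctp2 and Arhgap25. Bbc3 had the loosest match, with Tnfrsf10b first (0.77) and Cdkn1a, a cell cycle inhibitor, second (0.75). The libraries share the difference between fetal and adult cells, so these values describe that contrast as well.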

How the data were processed

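RNA from sorted progenitors of 32 mouse samples in 9 groups was measured by RNA sequencing with reads of 150 bases from both ends. The authors deposited raw counts per Ensembl gene, mapped with HISAT2 2.1.0 to GRCm38, per the labels' design text; the submitters' processing notes list another version of that tool. The counting tool, its annotation, its use of strand and the gene filter are not given in the sources used here. Symbols, coordinates and exon lengths came from GENCODE release 21 for mouse (M21). From the counts, per-library values were computed as counts per 1e+06 (CPM) scaled by trimmed means of M values (TMM), and log2 CPM used a prior count of 2.

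Genes were filtered with filterByExpr and tested with edgeR 4.0.16 (glmQLFit and glmQLFTest, R 4.3.3), with Benjamini-Hochberg adjustment over all genes tested and a call at an adjusted p under 0.05. The 9 comparisons were 3 fetal pairs within batch A in 1 fit of the 9 libraries of those groups, S34F against 1 library of batch B in a fit of the 15 fetal libraries, 3 doses against untreated wild type and 10000 against 1250 ppm in a fit of the 17 adult libraries, and, in the 14 dosed ones, a slope on the log2 dose. The scripts were tested on simulated data with known changes. The members and lists were chosen with earlier results of these data known. The text names all 8 members in each comparison, up to 4 called genes of each list by smallest adjusted p (Apaf1 was added after its values were seen), and the 3 genes most like each called member. A result of the caspase list that this rule would name is not reported here.

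Alternatives were DESeq2 1.42.0, median-ratio factors, no filter on low counts, other sets of libraries in the fit, the replicate number as a block, the rank of the dose and leaving out each library. The hepatocyte covariate, and the fits without both libraries rich in Ly6g or without untreated replicate 3, were added after seeing the data. None of the 45 pairs of libraries within a group was alike within sampling noise (chi-square per degree of freedom 3.85 to 522.4). Each was counted as 1 sample, but this check cannot show whether libraries came from separate animals. Library totals were 26588099 to 71251200 counts.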

Additional observations from a re-analysis of the deposited data

Results flagged for a closer look

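Of 32 pairs of a gene and a group with 4 to 6 libraries, 2 held a library far from the others, where chance marks about 1 in 20 such groups. Bid was at 135.8 CPM in replicate 2 of 2500 ppm, while the other 5 libraries of that dose began at 113.0 CPM, and its gap to the next library took 0.771 of the range (limit 0.625). Bmf was at 2.26 CPM in replicate 4 of 1250 ppm, while the highest library of that dose was at 4.03 CPM, and the gap took 0.853 of the range (limit 0.829).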

How the results depend on the processing

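Results of single genes kept their direction and their side of the threshold in 359 of the recomputed values with every library kept, lost the call in 26, gained it in 12 and changed sign in 19. With 1 library left out the same counts were 471, 42, 5 and 26. The cause of each change was not tested, except that fits without the filter adjust over more genes and fits of fewer libraries hold fewer samples. The gene counts cannot show splice forms, and depth was not varied in any setting.

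The number of members called moved as follows. With hepatocyte transcripts as a covariate 1 was called for the homozygous deletion against the flox control. For S34F, DESeq2 called 1, median-ratio factors 1 and no filter 2. For 1250 ppm against untreated wild type, no filter gave 0 and a fit of only both compared groups 2. For 10000 against 1250 ppm, no filter gave 2, only both compared groups 1, and leaving out both libraries rich in Ly6g 0. For the slope with dose, DESeq2 gave 4, no filter 1 and leaving out both libraries rich in Ly6g 0.

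Leaving out 1 library gave 4 to 5 members for the homozygous deletion against the flox control, 4 to 5 against the heterozygous deletion, and 0 to 0 for the heterozygous deletion, S34F, 10000 ppm and 2500 ppm against their controls. It gave 0 to 1 for 1250 ppm, 1 to 4 for 10000 against 1250 ppm and 0 to 4 for the slope. Only Bax was left between 10000 and 1250 ppm without replicate 1 or 2 of 10000 ppm or replicate 1, 4 or 5 of 1250 ppm. The slope had 0 calls without replicate 1 or 2 of 10000 ppm or any 1 replicate of 1250 ppm, 1 without replicate 4 or 5 of 2500 ppm and 4 without replicate 3 of 10000 ppm.

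Equal replicate numbers were not taken to pair libraries. Deviations of same-numbered libraries correlated above 0.1 in 1 of 7 fetal and 6 of 19 adult pairs. Pairs of different number did so in 4 of 20 and 20 of 87. The highest adult correlation was 0.52 for the same number and 0.36 for different numbers. These values cannot exclude that some adult libraries were paired. With the replicate block, members called were 0 for 1250 ppm against untreated wild type, 2 for 10000 against 1250 ppm and 0 for the slope. Signs changed under the block for Mcl1 at 2500 ppm (0.014) and 1250 ppm (0.10), for Bcl2l11 (0.032), Pmaip1 (0.30) and Bmf (0.17) at 1250 ppm, and for Bcl2l1 between 10000 and 1250 ppm (-0.064) and in the slope (-0.0064). No paired analysis was possible for S34F because its groups share fewer than 2 numbers.

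Other sign changes were of differences near 0, or of Pmaip1 and the libraries named above. Mcl1 after homozygous deletion was 0.0065 with DESeq2, 0.0067 with median-ratio factors and 0.016 with all 15 fetal libraries. With the hepatocyte covariate Pmaip1 was -0.63 there and Bax 0.066 after heterozygous deletion, and without the filter Bcl2l1 was -0.0015 with S34F. Without both libraries rich in Ly6g, Bcl2l1 was -0.076 and Mcl1 -0.12 for 10000 ppm against untreated wild type, -0.36 and -0.044 against 1250 ppm, and -0.13 and -0.028 for the slope.

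Leaving out 1 library moved some log2 differences across 0. After homozygous deletion Mcl1 ran from -0.046 to 0.049. After heterozygous deletion Bcl2l1 ran from -0.053 to 0.10, Bax from -0.033 to 0.026, Bbc3 from -0.0083 to 0.38 and Pmaip1 from -0.37 to 0.32, and with S34F Bcl2l1 from -0.021 to 0.034. Against untreated wild type at 10000 ppm, Mcl1 ran from -0.011 to 0.40, Bax from -0.19 to 0.048, Bbc3 from -0.49 to 0.58 and Pmaip1 from -1.68 to 0.078. At 2500 ppm Mcl1 ran from -0.11 to 0.0096, Bax from -0.016 to 0.22, Bbc3 from -0.54 to 0.53 and Pmaip1 from -1.31 to 0.45. At 1250 ppm Mcl1 ran from -0.099 to 0.016, Bbc3 from -0.14 to 0.94 and Pmaip1 from -0.63 to 1.13. Bcl2l1 ran from -0.14 to 0.34 between 10000 and 1250 ppm and from -0.034 to 0.13 in the slope.

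Over all genes, counts of calls moved by more than 1.5 times as follows. Homozygous deletion against the flox control went from 5194 to 1353 with the hepatocyte covariate. The heterozygous deletion went from 4 to 118 with DESeq2, 230 without the filter, 8 with all 15 fetal libraries, and 0 with the covariate, the replicate block or only both compared groups. S34F went from 44 to 271 with DESeq2 and 187 without the filter. For 10000 ppm against untreated wild type it went from 169 to 1055 with DESeq2, 1 with only both groups and 8 without both libraries rich in Ly6g. For 2500 ppm it went from 65 to 567, 4 with only both groups and 121 with the block. For 1250 ppm it went from 1524 to 2519 with DESeq2, 702 without the filter, 438 with the block and 3165 with only both groups. For 10000 against 1250 ppm it went from 2420 to 1533 without the filter, 1184 with the block, 1052 with only both groups and 769 without both libraries rich in Ly6g. The slope went from 1376 to 2227 with DESeq2, 2069 with the rank of dose, 33 with the block and 4 without both libraries. With 1 library left out the counts ran from 3994 to 5589, 0 to 269 and 4048 to 5179 in the 3 fetal pairs, 8 to 16 for S34F, 0 to 816, 0 to 163 and 68 to 1445 for 10000, 2500 and 1250 ppm, 1118 to 2809 between doses and 87 to 2240 for the slope.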
